A study of Mus musculus with 12 samples.

Results

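The RNA levels of 10 genes that carry glucose into the cell and convert it to lactate were followed in normal thymus and NPM-ALK lymphoma of mice. The genes were taken by name, from the 50600 genes of the deposited count tables: the glucose transporters Slc2a1 and Slc2a3, the hexokinases Hk1 and Hk2, the phosphofructokinase Pfkp, the aldolase Aldoa, the enolase Eno1, the pyruvate kinase Pkm, the lactate dehydrogenase Ldha and the lactate exporter Slc16a3. All 10 had enough reads to be among the 16052 genes tested. Each of 4 groups held 3 mice, and each mouse gave 1 library of polyadenylated RNA. Ctrl was thymocytes with the Dnmt1 fl/fl allele and no Cre, from mice of 20 to 25 weeks. KO was thymocytes of Dnmt1 fl/fl CD4-Cre mice of 20 to 21 weeks, in which Cre removes the DNA methyltransferase gene Dnmt1 in cells that use the Cd4 promoter. ALK was T-cell lymphoma cells of NPM-ALK+ mice of 22 to 31 weeks, whose transgene, a human fusion of nucleophosmin with the receptor tyrosine kinase ALK, is driven by a Cd4 enhancer and promoter. ALKKO was thymocytes of NPM-ALK+, Dnmt1 fl/fl CD4-Cre mice of 19 to 25 weeks, which carry both the transgene and the deletion. KO2, the second KO mouse, was labelled female and all others male. All mice were of a mixed C57Bl/6 and SV/129 background. The RNA came from homogenized tissue, in which fewer cells of a type and less RNA per cell cannot be told apart.

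Glucose enters cells through facilitative SLC2A transporters, is trapped by hexokinase as glucose 6-phosphate and is split and oxidized to pyruvate. Lactate dehydrogenase reduces pyruvate to lactate, which leaves with a proton through SLC16A transporters. Proliferating T cells and many tumors turn glucose into lactate even where oxygen is available, and the transcription factors MYC and HIF-1 are known to act on many genes of the route.

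Positions are on GRCm38, from the first to the last base of the gene in the annotation, with introns and untranslated parts included. The transporters of glucose are Slc2a1 (ENSMUSG00000028645.11) at chr4:119108711-119137983 on the plus strand and Slc2a3 (ENSMUSG00000003153.10) at chr6:122727809-122801640 on the minus strand. The hexokinases are Hk1 (ENSMUSG00000037012.18) at chr10:62268855-62379908 on the minus strand and Hk2 (ENSMUSG00000000628.10) at chr6:82725025-82774454 on the minus strand. Downstream of them come Pfkp (ENSMUSG00000021196.13) at chr13:6579768-6648777 on the minus strand and Aldoa (ENSMUSG00000030695.14) at chr7:126795234-126800751 on the minus strand. The enzymes that form phosphoenolpyruvate and pyruvate are Eno1 (ENSMUSG00000063524.13) at chr4:150236721-150248879 on the plus strand and Pkm (ENSMUSG00000032294.17) at chr9:59656368-59679375 on the plus strand. Lactate is formed and exported by the products of Ldha (ENSMUSG00000063229.15) at chr7:46841475-46855627 on the plus strand and Slc16a3 (ENSMUSG00000025161.16) at chr11:120948480-120960868 on the plus strand.

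The libraries held between 12473857 and 18864327 counted reads, and levels are given as CPM, the read count relative to the library's total after TMM scaling. Dnmt1 had 400.0 to 487 CPM in Ctrl, 206 to 244 in KO, 379 to 788 in ALK and 205 to 244 in ALKKO. Alk was at 0.107 to 0.431 CPM in Ctrl and KO and at 34.9 to 55.0 in ALK and ALKKO. The T-cell genes Cd3e and Lck were found in every library (Cd3e between 213 and 587 CPM). Cd5 was at 0.786 to 2.22 CPM in ALK against 231 to 275 in Ctrl. Over the 7 T-cell markers the median log2 change of ALK from Ctrl was -0.89, and 1 change was above 0. Cd4 and Cd8a, which double-positive and single-positive thymocytes express, were at 27.5 to 116 and 10.4 to 292 CPM in ALK. In Ctrl they were at 1287 to 1409 and 1985 to 2256 CPM. Ptcra had 32.5 to 424 CPM in ALK and 46.3 to 49 in Ctrl, Dntt 1054 to 2942 and 1828 to 2061. Over the 6 tested double-positive markers the median change was -3.43, and 1 was above 0. The remaining listed marker, Rag1, had 0 reads in all 12 libraries, although Rag2 had 335 to 422 CPM in Ctrl. The reason was not tested. Some libraries carried RNA of other cells. KO2 had 1531 CPM over the 4 B-cell markers, where the other thymus libraries had 34.3 to 70.3 CPM, and it also stood apart in macrophage markers (2421 CPM against 507 to 773), double-positive thymocyte markers (2487 CPM against 5965 to 7833) and thymic epithelial markers (70.3 CPM against 405 to 660.1). The epithelial markers summed to 3.63 to 156 CPM in ALK. KO3 had 83.9 CPM over the 5 muscle markers, where the others of the 12 had 1.13 to 10.8 CPM. The 4 adipocyte markers summed to 18.8 to 687 CPM in the thymus libraries and 0.391 to 26.1 in ALK, and the 5 fibroblast markers to 131 to 859.7 CPM in thymus and 910.5 to 2375 in ALK.

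In ALK tumors, the RNA of 4 of the 10 genes rose, those of enolase, pyruvate kinase, lactate dehydrogenase and the lactate exporter, and that of the other 6 did not pass the test. Eno1, Pkm, Ldha and Slc16a3 rose 2.14-fold, 3.13-fold, 2.08-fold and 9.52-fold over Ctrl. None of the 10 fell. The call needed an adjusted p under 0.05 over all tested genes by edgeR's quasi-likelihood test and a log2 fold change beyond 1. By that rule 20.4% of all tested genes were called in this comparison and 8.41% were called higher, and by the adjusted p alone 14.8% were higher. The median log2 fold change of the 10 genes was 1.03, beside 0.05 over all tested genes. Summed over the 10 genes, the libraries held 1477, 1712 and 1653 CPM in Ctrl, 1304, 2075 and 1788 in KO, 3555, 2937 and 2788 in ALK, and 1083, 1732 and 1093 in ALKKO. The lowest ALK sum lay above the highest thymus sum.

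**Figure D1:**
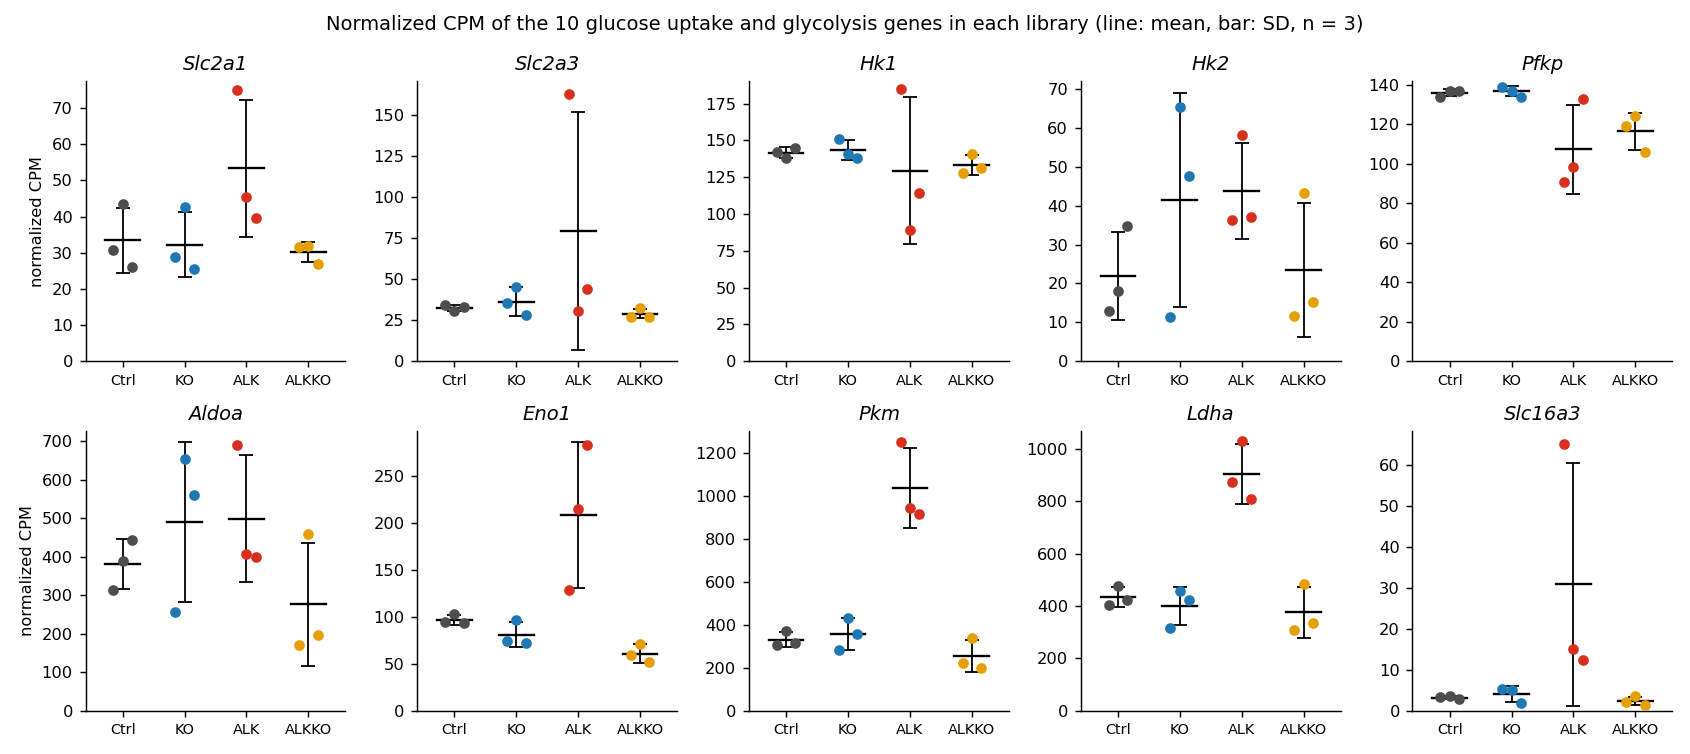
Normalized CPM (vertical axes, linear from 0) of the 10 genes in each of the 12 libraries, by group; points are libraries, lines means and bars SD over 3 mice. In Eno1, Pkm, Ldha and Slc16a3 all ALK points lie above all 9 thymus points, whereas Slc2a3 is high in 1 ALK library only.

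The glucose transporters differed among the tumors themselves. Slc2a1 encodes GLUT1, the transporter of basal glucose uptake in most cells. It had 30.7, 43.5 and 26.1 CPM in Ctrl, 28.7, 42.5 and 25.5 in KO, 74.9, 45.5 and 39.5 in ALK and 31.7, 31.9 and 27.0 in ALKKO. ALK and Ctrl overlapped, since the third ALK library (ALK3) lay below the second Ctrl library. The difference was 0.67 on the log2 scale (95% interval 0.03 to 1.31, adjusted p = 0.103). Slc2a3 encodes GLUT3, a transporter of high affinity for glucose. Its level was 34, 30.6 and 33.2 CPM in Ctrl, 35.5, 45.4 and 28 in KO, 163, 30.8 and 44.1 in ALK, and 27.2, 32.1 and 27.2 in ALKKO. Only the first ALK library (ALK1) was far above the thymus. The log2 difference from Ctrl, 1.28 (95% interval 0.17 to 2.39, adjusted p = 0.0766), was 0.20 without ALK1 (adjusted p = 0.526), and it passed the test at 1.65 without ALK2, at 1.56 without ALK3 and at 1.24 by DESeq2 (adjusted p = 0.0429).

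Of the hexokinases, which add the first phosphate to glucose, Hk1 is the widely expressed form and Hk2 the form known to be inducible. Hk1 stayed within 128 to 151 CPM in the 9 thymus libraries and spread over 185, 89.1 and 114 in ALK. Its log2 difference of ALK from Ctrl was -0.13 (95% interval -0.60 to 0.35, adjusted p = 0.680), and it passed the test at -0.48 without ALK1 (adjusted p = 0.0164). The tumors thus lay on both sides of a narrow thymus range. Hk2 had 12.9, 18.0 and 34.7 CPM in Ctrl, 11.3, 65.3 and 47.6 in KO, 36.3, 58.1 and 37.0 in ALK, and 11.6, 43.2 and 15.3 in ALKKO. All ALK values lay above all Ctrl values, but 2 of the KO values and 1 of the ALKKO values were as high. The log2 difference of ALK from Ctrl was 1.0 (95% interval -0.45 to 2.45, adjusted p = 0.269). Hk2 varied 5.76-fold among the 9 thymus libraries, more than any other of the 10 genes, and Hk1 1.18-fold. With the mean level of the adipocyte markers as a covariate the log2 difference was 3.44 and passed the test (adjusted p = 0.0403). With that of the fibroblast markers it was -0.39 (adjusted p = 0.580), so that its direction depends on the covariate. The mean log2(CPM + 1) of the adipocyte markers was 0.13 to 2.72 in ALK and 5.51 to 6.89 in Ctrl. That of the fibroblast markers was 6.67 to 7.40 and 4.73 to 5.58. Neither overlapped, so that group and marker level are confounded in both fits.

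Pfkp, the platelet form of the enzyme that commits glucose to glycolysis, was nearly constant in Ctrl and KO. It had 134, 137 and 137 CPM in Ctrl, 139, 137 and 134 in KO, 90.8, 98.4 and 133 in ALK, and 119, 124 and 106 in ALKKO. The ALK libraries were lower than every Ctrl library, by 0.34 on the log2 scale in the fit (SE 0.14, 95% interval of the change -0.65 to -0.03, adjusted p = 0.0872). It passed the test without ALK3, at -0.54 (adjusted p = 0.00549), with labelled age as a covariate, at -0.49 (adjusted p = 0.0253), and by DESeq2, at -0.38 (adjusted p = 0.0285). Aldoa, which splits fructose 1,6-bisphosphate, had between 314 and 443 CPM in Ctrl (382 ± 64.6, SD, n = 3), 257, 654 and 560.1 in KO, 689, 407 and 399 in ALK and 172, 459 and 197 in ALKKO. Groups overlapped throughout, and ALK differed from Ctrl by 0.38 (95% interval -0.56 to 1.33, adjusted p = 0.525). The adipocyte covariate gave 2.01 (adjusted p = 0.0104) and the fibroblast covariate -0.69 (adjusted p = 0.0729). This direction also depends on the covariate, with the same limit as for Hk2.

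The enzymes of the last steps to pyruvate were higher in each tumor than in each thymus. Eno1, which makes phosphoenolpyruvate, had 94.1, 103 and 93.8 CPM in Ctrl, 74.7, 96.2 and 72.1 in KO, 128, 214 and 283 in ALK and 59.4, 71.2 and 52.1 in ALKKO. It rose by a log2 value of 1.10 (SE 0.25, adjusted p = 0.00979) in ALK over Ctrl, and by 0.80 (adjusted p = 0.0234) without ALK3. Pkm, which makes pyruvate and ATP, was at 332 ± 34.5 CPM in Ctrl (SD, n = 3, lowest 308), 284, 431 and 357 in KO, 1252, 947 and 917 in ALK, and 225, 341 and 201 in ALKKO. Its rise was 1.65 on the log2 scale (SE 0.24, adjusted p = 0.00120), between 1.49 and 1.71 with any 1 library of the 2 groups left out. The counts cover the gene as a whole and do not separate its M1 and M2 splice forms.

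The RNA of lactate dehydrogenase A and of a lactate exporter rose as well. Ldha, the subunit of lactate dehydrogenase that favors lactate, had 404, 478 and 422 CPM in Ctrl, 317, 458 and 424 in KO, 872, 1032 and 809.6 in ALK and 307, 486 and 334 in ALKKO. The log2 change of ALK from Ctrl was 1.06 (SE 0.21, adjusted p = 0.00462). It stayed past the adjusted p with any 1 library left out and was below the fold limit without Ctrl1 (0.98) and without ALK2 (0.93). Slc16a3 encodes MCT4, the lactate exporter known from strongly glycolytic cells. It had 3.28, 3.59 and 2.86 CPM in Ctrl, 5.41, 4.99 and 1.95 in KO, 65.2, 15.1 and 12.4 in ALK, and 2.18, 3.53 and 1.47 in ALKKO. These levels rested on 23 to 102 reads in each thymus library and 158 to 971 reads in each tumor. Slc16a3 rose most of the 10 genes in the fit, by 3.25 on the log2 scale (SE 0.69, adjusted p = 0.00674), and by 2.08 without ALK1 (adjusted p = 0.0114). Counted over all tested genes, 13.1% had their 3 ALK values above all 9 thymus values, as these 4 genes did.

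Of the 5 fibroblast markers 3 rose in ALK as well. Col1a1, Col1a2 and Col3a1 rose over Ctrl by log2 values of 4.26, 3.35 and 2.94 and passed the same test. Dcn went from 83.2 to 134 CPM in Ctrl to 23.0 to 45.6 in ALK. Pdgfra was at 4.88 to 10.7 CPM in Ctrl and 3.93 to 15.9 in ALK. The marker level used as a covariate is the mean over all 5. With the fibroblast marker level as a covariate 2 of the 10 genes were called in place of 4: Pkm kept a log2 change of 1.19 (adjusted p = 0.00566) and Slc16a3 of 2.78 (adjusted p = 0.0491), Ldha had 0.70 (adjusted p = 0.0367) and Eno1 0.99 (adjusted p = 0.0555). With the adipocyte covariate Eno1 had 0.95 (adjusted p = 0.212). In both covariate fits group and marker level are confounded, as given above for Hk2. The share of alignments with more than 1 position, which the counting left out, was 48.5% to 51.8% in ALK and 39.2% to 45.6% in thymus. Of all stretches of 50 bases in their annotated transcripts, 26% in Eno1, 25.8% in Pkm and 9.26% in Ldha also occur in transcripts of other genes, against 0% in Slc16a3. The levels of Eno1, of which 25.3% is shared with its copy Eno1b, and of Pkm are therefore uncertain.

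**Figure D2:**
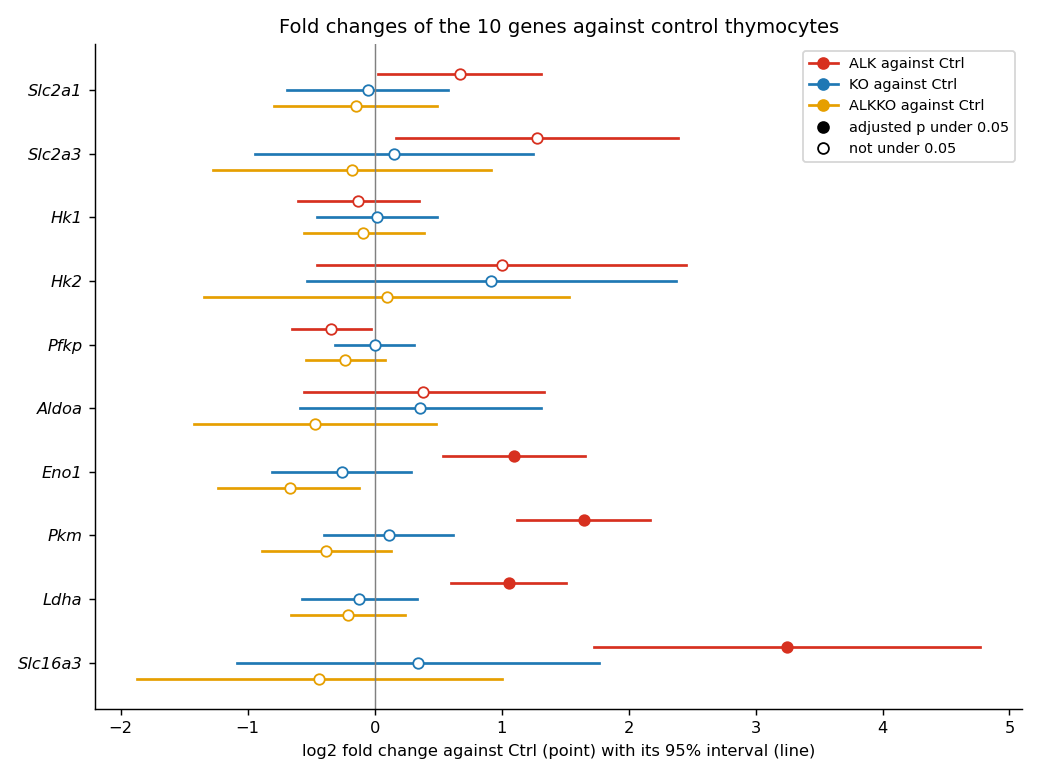
Log2 fold change of each gene in ALK, KO and ALKKO against Ctrl (points, horizontal axis) with its 95% interval (lines); filled points passed an adjusted p of 0.05. The filled points are Eno1, Pkm, Ldha and Slc16a3 in ALK, and all points of KO and ALKKO are open.

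The promoters of the 4 genes that rose are shown because all were higher in the tumors than in thymus, although their order among the 3 tumors differed, and because MYC and HIF-1 are known to bind short motifs. The sequences, 250 bases before to 50 bases after a RefSeq transcription start on GRCm38.p6, run 5′ to 3′ on the gene's own strand. Capitals mark the E-box CACGTG, the core ACGTG and its variant GCGTG, each in either orientation, so that a CACGTG also holds ACGTG. Where a gene has several starts, the window with most ACGTG matches is given, or the first where none has any.
Eno1 promoter (chr4:150236458-150236757, plus strand): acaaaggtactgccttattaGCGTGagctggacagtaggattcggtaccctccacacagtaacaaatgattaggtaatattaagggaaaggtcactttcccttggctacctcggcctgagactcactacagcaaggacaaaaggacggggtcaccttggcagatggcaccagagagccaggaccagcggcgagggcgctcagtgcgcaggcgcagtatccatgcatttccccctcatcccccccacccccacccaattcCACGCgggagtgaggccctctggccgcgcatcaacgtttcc
Pkm promoter (chr9:59656977-59657276, plus strand): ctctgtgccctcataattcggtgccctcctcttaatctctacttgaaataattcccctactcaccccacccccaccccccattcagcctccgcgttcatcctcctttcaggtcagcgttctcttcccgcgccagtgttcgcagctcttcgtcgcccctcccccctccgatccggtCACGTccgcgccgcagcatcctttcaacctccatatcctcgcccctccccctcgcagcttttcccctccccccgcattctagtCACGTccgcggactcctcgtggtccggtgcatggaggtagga
Ldha promoter (chr7:46845554-46845853, plus strand): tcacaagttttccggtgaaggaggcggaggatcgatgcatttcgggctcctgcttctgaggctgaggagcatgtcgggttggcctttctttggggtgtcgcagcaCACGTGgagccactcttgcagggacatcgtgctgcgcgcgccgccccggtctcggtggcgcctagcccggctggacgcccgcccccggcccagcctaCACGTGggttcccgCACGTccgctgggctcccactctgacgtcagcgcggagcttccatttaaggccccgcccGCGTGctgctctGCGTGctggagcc
Slc16a3 promoter (chr11:120948817-120949116, plus strand): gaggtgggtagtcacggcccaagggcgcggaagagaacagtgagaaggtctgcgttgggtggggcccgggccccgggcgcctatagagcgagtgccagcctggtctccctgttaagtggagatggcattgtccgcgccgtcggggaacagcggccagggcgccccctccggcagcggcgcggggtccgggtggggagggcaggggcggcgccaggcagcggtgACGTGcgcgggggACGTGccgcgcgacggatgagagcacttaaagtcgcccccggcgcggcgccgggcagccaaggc

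The Ldha window held 2 E-boxes, which begin 145 and 48 bases before the start, and 5 ACGTG matches in all, counting both orientations. The Slc16a3 window had ACGTG at -27 and -14. The Pkm window had it at -75 and 9, where 1 is the first transcribed base, and the other Pkm window had none. No ACGTG was found in the 3 Eno1 windows, each of which had 2 GCGTG matches. Over the 9 genes with an entry (16 windows), 7 had ACGTG and 5 had GCGTG in at least 1 window, 1 had CACGTG and 0 had TTCNNNGAA, the palindrome known for STAT factors. Counted by window, ACGTG was in 8 of the 16, GCGTG in 8, CACGTG in 1 and TTCNNNGAA in 0, and some windows of 1 gene overlap. Of all 32851 promoter windows, 19.6% held ACGTG, 32.4% GCGTG, 7.15% CACGTG and 8.3% TTCNNNGAA. Hk1, Hk2, Slc2a1 and Aldoa, which did not pass the test, also had ACGTG in a window. Slc2a3 had no entry.

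Per length, lactate dehydrogenase, aldolase and pyruvate kinase made up most of the RNA of the 10 genes. Levels per kilobase of exon are used for this order. In Ctrl, Ldha stood at 131 ± 11.7 CPM per kb (SD, n = 3), Aldoa at 131 ± 22.2 and Pkm at 66.4 ± 6.90, of which Ldha and Aldoa did not differ beyond their spread. Eno1 at 18.1 ± 1.02 and Hk1 at 16.6 ± 0.418 came next, then Pfkp at 10.2 ± 0.111, Slc2a1 at 9.54 ± 2.57, Slc2a3 at 4.50 ± 0.246, Hk2 at 3.66 ± 1.91 and Slc16a3 at 0.610 ± 0.0692. Pfkp and Slc2a1 overlapped within their SD, as did Slc2a3 and Hk2. In ALK the order began with Ldha at 273 ± 34.7 CPM per kb, Pkm at 208 ± 37.1 and Aldoa at 171 ± 56.7, and ended with Pfkp at 8.01 ± 1.67, Hk2 at 7.34 ± 2.08 and Slc16a3 at 5.81 ± 5.60. Within each of these triplets, neighbors in the order overlapped within 1 SD. Pkm took 17.0% ± 1.19 of the summed level per kb in Ctrl and 27.5% ± 1.48 in ALK, Hk1 4.25% ± 0.437 and 1.98% ± 0.537, and Pfkp 2.61% ± 0.216 and 1.09% ± 0.358. The sum itself was 392 ± 35.2 CPM per kb in Ctrl and 753 ± 101 in ALK.

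Deletion of Dnmt1, with or without the transgene, gave no call among the 10 genes. The comparison of KO with Ctrl addressed the deletion without the transgene. Ctrl also lacked Cre, KO2 was labelled female, and KO2 and KO3 carried RNA of other cells as given above. None of the 10 genes passed edgeR's quasi-likelihood test, none had an unadjusted p under 0.05 and DESeq2 called 0. Of all tested genes, 0.0187% were called. The log2 differences ran from -0.26 in Eno1 (95% interval -0.81 to 0.29) to 0.92 in Hk2 (95% interval -0.53 to 2.37). With KO2 and KO3 left out, KO is the single library KO1, the lowest of the 3 in Hk2 and Aldoa, whose spread is taken from the other groups, and the differences from Ctrl were -0.97 in Hk2 and -0.59 in Aldoa. The widest intervals allow changes of several fold in Hk2 and Slc16a3, whereas Pfkp was held to -0.31 to 0.31 and Hk1 to -0.45 to 0.49.

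ALKKO against Ctrl asked what the transgene and the deletion do together. None of the 10 genes was called by edgeR or by DESeq2, beside 0.181% of all tested genes. The gene Eno1 alone had an unadjusted p under 0.05 (0.0218). It was lower in all 3 ALKKO libraries than in all Ctrl libraries, with a log2 difference of -0.67 (95% interval -1.23 to -0.12) that did not pass the correction (adjusted p = 1). The median over the 10 genes was -0.22 and 1 of the 10 differences was above 0, that of Hk2 at 0.10 (95% interval -1.34 to 1.53). Pkm differed by -0.38 (95% interval -0.89 to 0.13), Ldha by -0.21 (95% interval -0.66 to 0.24) and Slc16a3 by -0.44 (95% interval -1.87 to 1.0), so that rises of the size seen in ALK lay outside these intervals for Pkm, Ldha and Slc16a3 and outside that of Eno1.

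Within Dnmt1-deleted thymus, ALKKO was compared with KO to see the transgene's effect. The 10 differences were all below 0, with a median of -0.37 and an all-gene median of -0.02. None passed edgeR's test, none had an unadjusted p under 0.05, DESeq2 called 0, and 0.00623% of all tested genes were called. Aldoa differed by -0.83 (95% interval -1.78 to 0.12), Hk2 by -0.82 (95% interval -2.27 to 0.62) and Pkm by -0.48 (95% interval -0.99 to 0.03). Against KO1 alone, 1 mouse, the differences were 1.05 in Hk2 and 0.11 in Aldoa.

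The tumors were also set against the Dnmt1-deleted tissues. Eno1, Pkm, Ldha and Slc16a3 were called higher in ALK than in KO, at log2 values of 1.36, 1.54, 1.18 and 2.91, where 7.94% of all tested genes were called higher. They were called higher in ALK than in ALKKO as well, at 1.77, 2.02, 1.27 and 3.69, beside 7.03% of all tested genes. These comparisons use the same 3 ALK libraries as the comparison with Ctrl. When only ALK and KO libraries entered the fit, 2 of the 10 genes were called. Slc2a1 and Slc2a3 came near the threshold in ALK against ALKKO, with log2 values of 0.82 (adjusted p = 0.0576) and 1.46 (adjusted p = 0.0529).

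Whether the effect of NPM-ALK differed between mice without and with Dnmt1 was tested as the difference of differences, ALKKO less KO against ALK less Ctrl. In this comparison thymocytes stand on the ALKKO side and lymphoma cells on the ALK side, so that transformation and the presence of Dnmt1 cannot be told apart. The same 4 genes passed. Pkm differed by -2.13 on the log2 scale (SE 0.33, adjusted p = 0.00583), Slc16a3 by -4.03 (SE 0.94, adjusted p = 0.0264), Eno1 by -1.51 (SE 0.35, adjusted p = 0.0273) and Ldha by -1.15 (SE 0.29, adjusted p = 0.0343). Of all tested genes, 3.31% were called lower here, and by the adjusted p alone 4.29% were lower and 10.3% differed in either direction. Pkm passed under each alternative that was run, with an adjusted p of at most 0.0494. The other 3 did not pass when any 1 Ctrl library, ALKKO1 or ALKKO3 was left out, when KO2 and KO3 were left out together, or with the fibroblast covariate, and each of these settings left 1 gene called. With 1 of those 5 libraries left out, the differences were -1.53 to -1.38 in Eno1, -1.19 to -1.0 in Ldha and -4.08 to -3.75 in Slc16a3. Without ALK2, Eno1 and Ldha did not pass, which left 2. Ldha also did not pass without KO2, without KO3, without a filter on low counts or with at least 10 reads asked of every library, and Eno1 did not with the adipocyte covariate, under which Hk2 (-3.89, adjusted p = 0.0380) and Aldoa (-2.63, adjusted p = 0.00945) passed and 5 genes were called.

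The other steps of the pathway were read from a list of 59 further genes of glucose transport, glycolysis, its fructose-bisphosphate switch, pyruvate and lactate, the pentose phosphate route and gluconeogenesis, of which 56 were tested. In ALK against Ctrl 12 rose, 5 fell and 39 did not pass, with 15 called and a median log2 fold change of 0.17. By the adjusted p alone 29.5% of all tested genes passed in this comparison, so that 17 of 56 is close to the background. Leaving out Ctrl1 or Ctrl3 left 7 called. Among the 15 tested further glycolytic enzymes 7 rose and 1 fell, at a median of 0.91. Between glucose 6-phosphate and phosphoenolpyruvate, Gpi1, Tpi1, Pgk1 and Pgam1 rose by log2 values of 0.91, 1.74, 1.17 and 1.16. In the same stretch Eno1 rose, and Pfkp, Aldoa and Gapdh did not pass. Tpi1, which interconverts the triose phosphates, had 104, 118 and 104 CPM in Ctrl and 522, 363 and 206 in ALK. Gapdh had 13.1 to 17.4 CPM in the Ctrl libraries and 21.2 to 33.2 in the tumors (log2 difference 0.78, adjusted p = 0.0535). Of its 50-base stretches 25.1% occur in transcripts of other genes, as do 53.9% in Pgk1 and 36.2% in Pgam1, so that these 3 levels are uncertain. Adpgk, an ADP-dependent glucokinase, rose by 1.09.

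**Figure D3:**
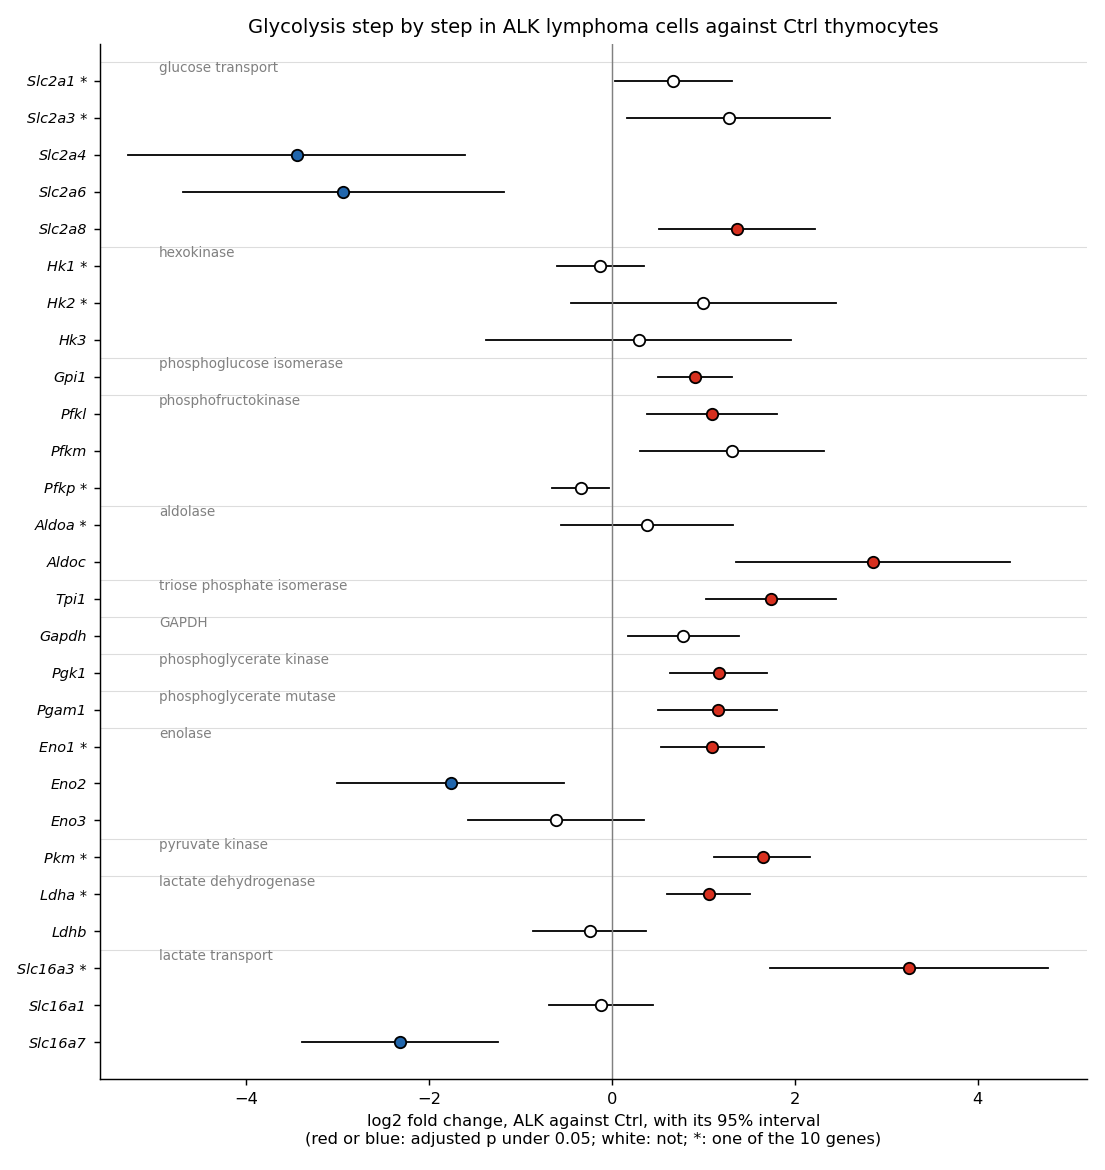
Log2 fold change of ALK against Ctrl (horizontal axis) with its 95% interval for the genes of each step from glucose transport to lactate transport; colored points passed an adjusted p of 0.05 and asterisks mark the 10 genes. From Gpi1 down, each step has a gene that rose, except that of Gapdh, while the hexokinase points are open. In the aldolase step only Aldoc rose, at 3.46 CPM per kb in ALK beside 171 of Aldoa. Eno2 and Slc16a7 fell, and the point of Pfkp is open.

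Within the gene families the members did not move alike. In glucose transport, Slc2a8 rose by 1.37, whereas Slc2a4, the insulin-responsive GLUT4 of fat and muscle, fell by 3.44 on the log2 scale and Slc2a6 fell by 2.94. Slc2a4 was at 20.4 to 52.3 CPM in the Ctrl libraries and 1.13 to 6.25 in the tumors, and the adipocyte markers Adipoq, Plin1, Cidec and Lep fell in the same comparison, with log2 changes between -5.72 and -5.0. The part of that change in the level of Slc2a4 was not tested. Of the phosphofructokinases, Pfkl, the liver form, rose by 1.10 (adjusted p = 0.0270), and Pfkm, the muscle form, differed by 1.31 (adjusted p = 0.0513). Pfkl had 92.8, 108 and 111 CPM in Ctrl and 272, 248 and 150.5 in ALK, so that all tumors lay above all Ctrl libraries. Aldoc rose by 2.86, from 1.08 to 2.04 CPM in Ctrl to 3.6 to 18.5 in ALK. Hk3 did not pass (0.30, adjusted p = 0.793), nor did Eno3 (-0.61, adjusted p = 0.309), and Eno2, the neuronal enolase, fell by 1.76. KO3, the library with muscle markers, had 78.9 CPM of Eno3, 52.4 CPM of Pgam2 and 114 CPM of Pfkm, each above the other 2 KO libraries.

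Pyruvate and lactate genes outside the 10 mostly did not pass. Of 18 tested, 0 rose by edgeR and 2 fell, where 29.5% of all tested genes passed in either direction. Slc16a7, the high-affinity MCT2, fell by 2.32, and Pdk4, a pyruvate dehydrogenase kinase of fasting and fat oxidation, fell by 4.52. Ldhb differed by -0.24 (95% interval -0.86 to 0.37) and Slc16a1, encoding MCT1, by -0.12 (95% interval -0.69 to 0.45), in contrast to their partners Ldha and Slc16a3. Pdk1 had 199.9, 259 and 195 CPM in Ctrl, 228, 190.3 and 293 in KO, 229, 144 and 212 in ALK and 439, 218 and 415 in ALKKO. Its ALK values overlapped Ctrl. Of the fructose-bisphosphate regulators, 0 of 5 passed, and Pfkfb3 ranged from 42.5 to 131 in ALK and from 122 to 197 CPM in Ctrl (log2 difference -0.87, adjusted p = 0.224).

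In the pentose phosphate route 1 of 7 genes rose, Pgls by 0.82. Of the 6 tested genes of gluconeogenesis 3 rose: Fbp1, Pck2 and G6pc3, by 8.21, 1.86 and 1.11. Both counts stand beside 14.8% of all tested genes. Fbp1, the fructose bisphosphatase that opposes phosphofructokinase, was at 0.863 to 1.07 CPM in Ctrl and at 26.1, 802 and 30.6 in ALK, so that ALK2 stood far above the other tumors. Pck1 had 99.6 to 448 CPM in the Ctrl libraries and 0.782 to 25.8 in the tumors and did not pass (adjusted p = 0.0742). In KO and ALKKO against Ctrl, 0 of the 56 genes passed edgeR's test or were called by DESeq2, with 3 and 1 at an unadjusted p under 0.05.

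Among 14 regulators of the pathway, 3 rose and 1 fell in ALK, close to the same background, and 1 was called. Myc was at 69.8, 75.8 and 77.4 CPM in Ctrl, 56.9 to 76.7 in KO, 244, 276 and 217 in ALK and 55.6 to 94.2 in ALKKO, a log2 rise of 1.72 in ALK over Ctrl (SE 0.21, adjusted p = 5.53e-04). Trp53 and Akt1 rose by 0.51 and 0.38, and Akt2 fell by 0.37. Hif1a differed by 0.44 (adjusted p = 0.117), with ALK2 highest at 347 CPM. Txnip, which restrains glucose uptake, was at 624, 305 and 1323 in ALK against 869 to 931 CPM in Ctrl and differed by -0.27 (adjusted p = 0.641). Of 8 further targets known for HIF-1, Car9 alone rose, by 2.19, from 1.06 to 1.83 CPM in Ctrl to 4.30 to 9.07 in ALK. ALK1 was the tumor with the highest Slc2a1, Slc2a3, Hk1, Aldoa, Pkm and Slc16a3, but not with the highest Hk2, Pfkp, Eno1 or Ldha. In 5 of the 8 targets, Vegfa, Ankrd37, Ndrg1, P4ha1 and Ddit4, it was also the highest tumor (77.9, 22.0, 97.6, 126 and 236 CPM). Its Car9 (4.3 CPM) and Ero1l (27.5 CPM) were the lowest of the 3 tumors, and its Bnip3 (10.4 CPM) lay between the others. Thymus libraries reached 98.3 CPM of Vegfa and 327 of Ddit4, above ALK1, but at most 13.6 of Ankrd37, 80.3 of Ndrg1 and 106 of P4ha1. The share of all genes highest in ALK1 was not counted. Of the 12 proliferation genes 1 rose, Mcm3 by 0.65. This count and the 1 of 8 HIF-1 targets stand beside 14.8% of all tested genes. Of the 12 differences 11 were above 0, with a median of 0.50, beside 0.05 over all tested genes. ALK3 had 2663 CPM over the 12 genes against 5915 and 5429 CPM in the other tumors.

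The balance between partner genes was taken within each library as the log2 ratio of their counts, which is free of scaling between libraries. Ldha to Ldhb lay at 0.39, 0.48 and 0.48 in Ctrl, 0.25, 1.83 and 0.51 in KO, 2.03, 1.58 and 1.72 in ALK, and 0.53, 1.10 and 0.41 in ALKKO. ALK exceeded Ctrl by 1.32 with no overlap, and KO2, the library with B-cell markers, was as high as the tumors. Slc16a3 to Slc16a1 lay at -5.82, -5.78 and -6.31 in Ctrl and -1.87, -3.33 and -3.80 in ALK, a difference of 2.97, and all 9 thymus values, from -7.22 to -4.84, were below the tumors. Both comparisons reached 0.1, the smallest two-sided p that an exact permutation test of 3 against 3 can give (adjusted over the 4 ratios, 0.2 in both exact tests). Hk2 to Hk1 was -2.82 ± 0.70 in Ctrl and -1.53 ± 0.87 in ALK (SD, n = 3, exact permutation p = 0.2), and Slc2a1 to Slc2a3 was 0.01 ± 0.45 and -0.24 ± 0.84 (exact permutation p = 0.8). For these 2 ratios ALK and Ctrl overlapped.

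**Figure D4:**
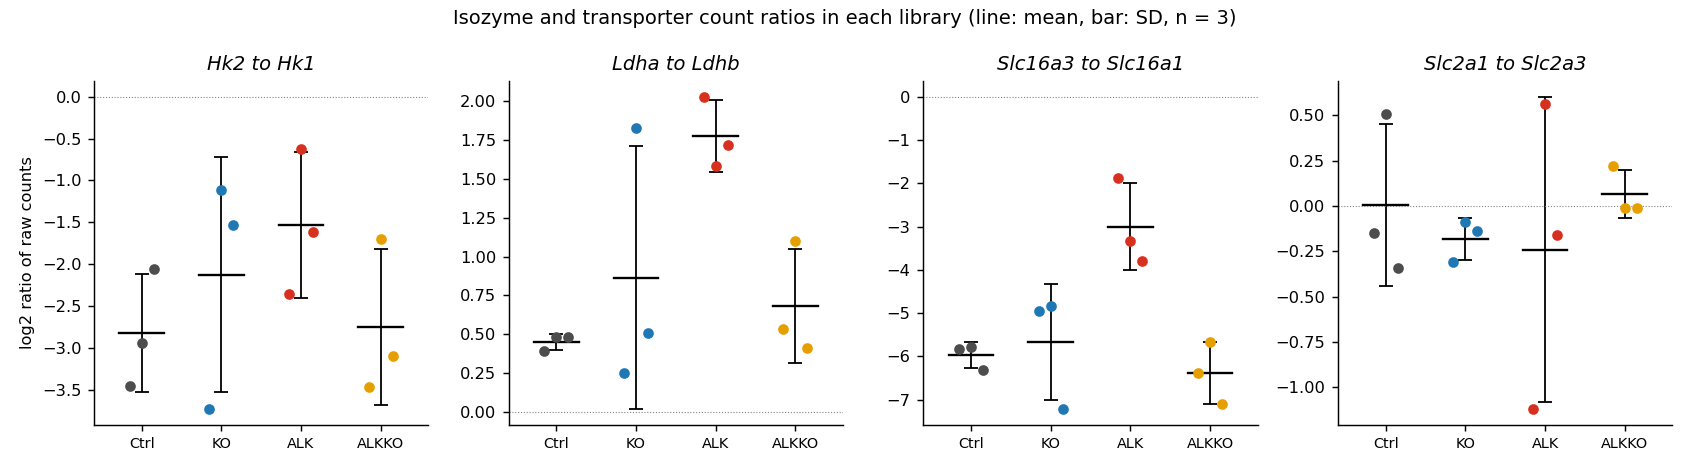
Log2 ratio of raw counts of 4 gene pairs in each library, by group, with mean (line) and SD (bar) over 3 mice. ALK lies above Ctrl in Ldha to Ldhb and in Slc16a3 to Slc16a1, where KO2 reaches 1.83 and all thymus values stay at or below -4.84, respectively.

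Among the thymus libraries, Aldoa and Ldha went with RNA of fat past the adjusted permutation p, and Hk2 and Pkm did not pass it. The adipocyte marker level, the mean log2(CPM + 1) of Adipoq, Plin1, Cidec and Lep, ran from 2.32 in ALKKO1 and 3.09 in KO1 to 6.89 in Ctrl3. Ucp1, the uncoupling protein of brown fat, chosen after its values were seen, had 1.38 CPM in KO1, 4.72 in ALKKO1 and 419, 663, 253 and 191 CPM in Ctrl3, KO2, KO3 and ALKKO2. Those 4 libraries had the 4 highest Hk2 values and the 4 highest Aldoa values of the 9. Ctrl1, Ctrl2 and ALKKO3 had 15.1, 58.8 and 84.9 CPM of Ucp1. Since Ucp1 was chosen from these values, the match is a description only. By the 4 adipocyte markers Ctrl1 stood at 6.26, above KO3 at 6.05, but had 12.9 CPM of Hk2 and 314 of Aldoa. Over the 9 thymus libraries Pearson's r of log2(CPM + 1) with the marker level was 0.806 for Aldoa (rho 0.783), 0.734 for Hk2 (rho 0.733), 0.851 for Ldha (rho 0.65) and 0.647 for Pkm (rho 0.6). Exact permutation p-values of r were 0.00816, 0.0199, 0.00397 and 0.0550, or 0.0408, 0.0662, 0.0397 and 0.137 adjusted over the 10 genes, and those of rho 0.0172, 0.0311, 0.0666 and 0.0968. Without KO1 and ALKKO1, the 2 libraries farthest from the median, r was 0.732, 0.633, 0.557 and 0.632 over 7 libraries. Slc2a1 and Slc16a3 had r of 0.0999 and 0.0777, and without KO1 and ALKKO1 of 0.0221 and 0.619, where Hk1 had 0.939 in place of 0.297. Each group holds 3 of these libraries, too few for a value within groups. The 4 libraries highest in Hk2 and Aldoa, Ctrl3, KO2, KO3 and ALKKO2, also had the highest fibroblast marker levels of the 9. These were 5.58, 6.92, 5.91 and 6.77, against 4.38 to 5.26 in the other thymus libraries. The 9 libraries span 3 genotypes, which the permutations mixed, and also differ in B-cell and muscle markers. The part of the fibroblast, B-cell and muscle markers was not tested. In ALK the adipocyte level was 0.13 to 2.72, the fibroblast level was 6.67 to 7.40 and Hk2 was at 36.3 to 58.1 CPM.

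**Figure D5:**
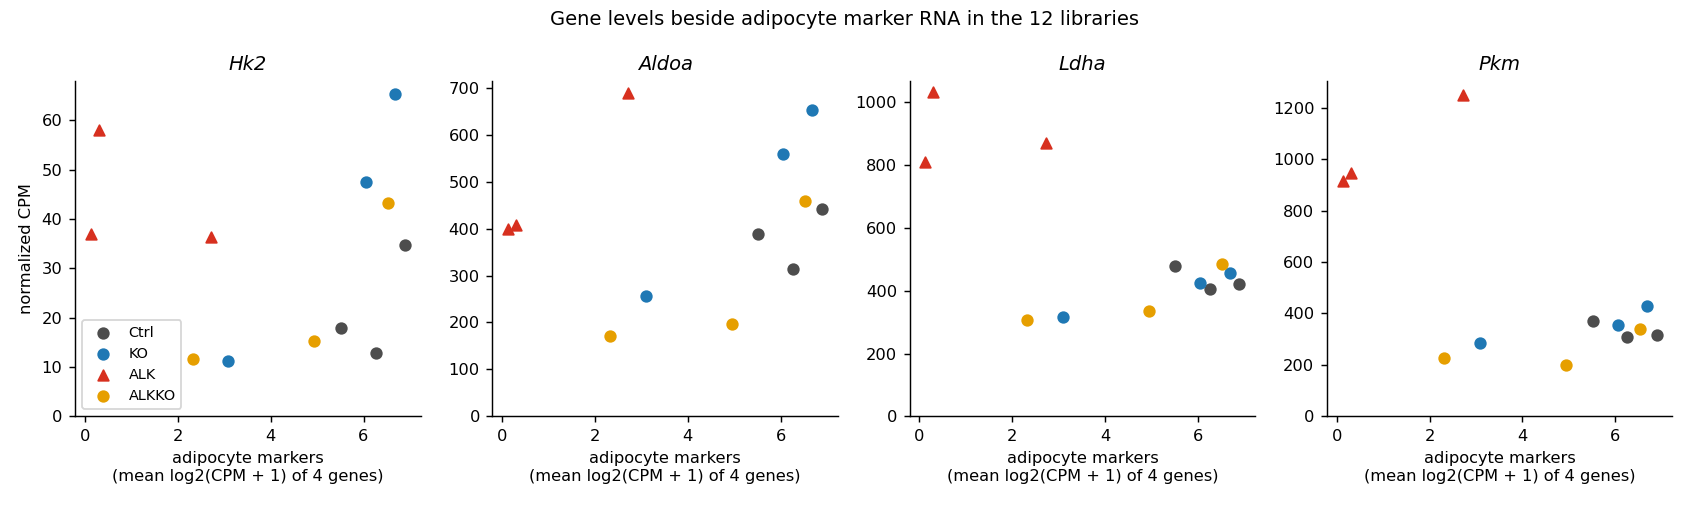
Normalized CPM of Hk2, Aldoa, Ldha and Pkm (vertical axes, from 0) against the mean log2(CPM + 1) of 4 adipocyte markers (horizontal axes) in the 12 libraries; triangles are ALK. Over the 9 thymus libraries (circles) Pearson's r of log2(CPM + 1) with the marker level was 0.806 for Aldoa and 0.734 for Hk2. That of Hk2 did not pass the adjusted permutation p. The 3 ALK libraries lie at the left with the highest Ldha and Pkm.

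The genes whose pattern was most like that of the 10 genes were sought among the tested genes outside all lists. The measure was Pearson's r over the 12 libraries with the mean standardized log2(CPM + 1) of the 10 genes, and it is a description, since the 3 ALK libraries stand apart from the rest. The 5 nearest were Spr at 0.962, Ctsk at 0.958, Kdelr3 at 0.948, Isoc2a at 0.939 and Plcb3 at 0.933. For single genes, the nearest to Pkm was Itgb1 (0.972), to Ldha Chchd4 (0.982), to Eno1 Marcksl1 (0.961) and to Slc16a3 Nf1 (0.967). Hk2 was nearest to Lama4 (0.975) and Aldoa to Cisd3 (0.958).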

How the data were processed

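Per the study's methods, stranded poly(A) libraries were sequenced as single-end reads of 50 bases, trimmed with Trim Galore, aligned to mm10 with STAR and counted per gene with HTSeq, and the authors deposited the raw read counts of each gene, 1 table for each of the 12 mice. The strand setting and annotation release are not given in the sources used here. Picard 2.19.2 is named in the submitters' processing notes. Of the 50600 gene IDs, 50376 matched GENCODE M21 on GRCm38. Rows of unassigned reads were left out of the library sizes. They held 1.7% to 2.81% of alignments with no feature, 1.38% to 2.83% ambiguous and 39.2% to 51.8% not unique.

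The counts were tested with edgeR 4.0.16 (R 4.3.3): genes passing filterByExpr (16052), TMM scaling (factors 0.913 to 1.06), 1 term per group over all 12 libraries, robust quasi-likelihood fit and Benjamini-Hochberg adjustment over all tested genes. Genes with an adjusted p under 0.05 were said to rise or fall, and to be called if the log2 fold change was also beyond 1. The biological coefficient of variation common to all genes came to 0.436. Intervals are 95% intervals of the fit. Ratios used a pseudocount of 0.5. The steps were tested on simulated data. Alternatives were DESeq2 1.42.0 and its size factors, other filters, a replicate block, sex, age, the compared groups alone, each library left out and a ratio pseudocount of 5. After the values were seen, the adipocyte and fibroblast marker covariates, the omission of KO2 and KO3 and the relation to adipocyte markers were added. Neither marker level overlapped between ALK and Ctrl, so these covariates are confounded with group.

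Named were the 10 genes, their family partners, Myc, Hif1a, Txnip, Pdk1 and Pfkfb3, and in each list the 2 called genes that rose most and the 2 that fell most in ALK against Ctrl. Other genes were named after their values were seen. The genes and lists were chosen with earlier results of these data known. Replicates are separate mice. Same-numbered libraries had no correlation over 0.1 in most pairs and were not treated as paired.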

Additional observations from a re-analysis of the deposited data

Results flagged for a closer look

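The response to NPM-ALK differed between mice without and with Dnmt1 in 4 of the 10 genes, by the test of the difference of differences in edgeR, where 3.31% of all tested genes were called lower. It was lower without Dnmt1 by log2 values of -2.13 in Pkm, -4.03 in Slc16a3, -1.51 in Eno1 and -1.15 in Ldha. Leaving out any 1 Ctrl library, ALKKO1 or ALKKO3, leaving out KO2 and KO3 together, or the fibroblast covariate left Pkm as the 1 gene called. Lymphoma cells stand on one side of this contrast and thymocytes on the other, so that transformation and Dnmt1 cannot be told apart.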

How the results depend on the processing

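Of the 10 genes, 3 to 4 were called in ALK against Ctrl with 1 library left out, 5 with DESeq2, 4 with the replicate block and 2 with the fibroblast covariate. The number was 0 under every alternative in KO or ALKKO against Ctrl and ALKKO against KO. In ALK against KO it was 2 with only those groups in the fit, and in ALK against ALKKO 7 with the adipocyte covariate. For the difference of NPM-ALK effects it was 1 to 4 with 1 library left out, 1 without KO2 and KO3 (KO1 alone, its spread taken from the other groups), 1 with the fibroblast covariate and 5 with the adipocyte covariate. Of the other pathway genes 7 to 14 were called in ALK against Ctrl with 1 library left out. The cause was not tested.

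Directions turned in uncalled log2 differences. In ALK against Ctrl, Hk1 was at 0.22 with the adipocyte covariate and -0.48 to 0.06 with 1 library left out, and with the fibroblast covariate Hk2 was at -0.39 and Aldoa at -0.69. In KO against Ctrl, leaving out 1 library gave -0.30 to 0.17 in Slc2a1, -0.03 to 0.29 in Slc2a3, -0.03 to 0.04 in Hk1, -0.02 to 0.00 in Pfkp, -0.05 to 0.23 in Pkm and -0.23 to 0.01 in Ldha. Without a filter Hk1 was at -0.01 and Pfkp at -0.03; with sex Slc2a3 was at -0.04, Pkm at -0.05 and Pfkp at -0.00; with the adipocyte covariate Pfkp was at -0.02; with the fibroblast covariate Pkm was at -0.06, Aldoa at -0.07 and Hk1 at -0.01; without KO2 and KO3 Aldoa was at -0.59, Hk2 at -0.97 and Pkm at -0.24. In ALKKO against Ctrl, leaving out 1 library gave -0.31 to 0.08 in Slc2a1 and -0.71 to 0.58 in Hk2, the replicate block -0.06 and the fibroblast covariate -0.30 in Hk2, and the adipocyte covariate 0.03 in Hk1 and 0.18 in Slc2a3. In ALKKO against KO, leaving out 1 library gave -0.23 to 0.16 in Slc2a1 and -0.31 to 0.04 in Ldha, sex 0.16 and 0.02 in these genes, and leaving out KO2 and KO3 0.08 in Slc2a1, 0.25 in Ldha, 1.05 in Hk2 and 0.11 in Aldoa.

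Same-numbered libraries had correlations of -0.106 to 0.426, over 0.1 in 5 of 18 pairs, all 5 between thymus libraries. Differently numbered libraries had correlations from -0.457 (KO1 with ALKKO2) to 0.208 (Ctrl3 with ALKKO2). These values do not settle whether the numbers pair the mice, which were not treated as paired. The replicate block moved no count of calls by over 1.5 times. The count ratios of ALK less Ctrl moved by less than the SD pooled over these groups with any 1 library left out, though Slc2a1 to Slc2a3 went from -0.24 to between -0.64 and 0.20, Ldha to Ldhb to between 1.20 and 1.42, and Slc16a3 to Slc16a1 to between 2.40 and 3.37. Groups of 3 mice leave wide intervals for Hk2 and Slc16a3. Reads with several positions were not counted, which limits Eno1, Pkm, Gapdh, Pgk1 and Pgam1.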

Other observations

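Outside the 10 genes, 7 of the 56 tested pathway genes also passed the test of the difference between the NPM-ALK effects, all lower without Dnmt1, where 10.3% of all tested genes passed in either direction and 4.29% were lower. The enzymes Gpi1, Tpi1, Pgk1, Aldoc and Adpgk differed by -1.24, -2.37, -1.50, -3.56 and -0.99, and the phosphatases Fbp1 and G6pc3 by -8.18 and -1.53. Myc and Car9 passed as well, at -1.69 and -2.91. Pdk1, which limits the entry of pyruvate into mitochondria, was at 439 and 415 CPM in ALKKO1 and ALKKO3, the highest 2 of the 12 libraries, and at 218 CPM in ALKKO2. Eno1b, the copy that shares 25.3% of the Eno1 stretches, had 125, 91, 65 and 52 reads in ALK1, ALKKO2, KO2 and KO3 and at most 1 read in each of the other 8 libraries.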
